A study of Homo sapiens with 12 samples.

Results

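The HOXC genes are the homeobox transcription factor genes that lie side by side on human chromosome 12, and they were examined here in lines made from CWR22Rv1, a long-established human prostate cancer line. Every listed gene whose symbol was HOXC followed by a number from 4 to 13 was taken, which gave 9 genes among the 13951 genes listed: HOXC4, HOXC5, HOXC6, HOXC8, HOXC9, HOXC10, HOXC11, HOXC12 and HOXC13. RNA-seq libraries were available in 4 groups of 3 replicates. Control cells carried exogenous Cas9 without a guide RNA, and LV-MEIS1 cells carried exogenous MEIS1 delivered by lentivirus. HOXB13ko cells carried Cas9 and a guide to the part of HOXB13 that encodes the amino-terminal end, and several knockout clones were recombined into a single pool. HOXB13ko-LV-MEIS1 cells were that pool after infection with the MEIS1 virus. All lines were grown in medium with serum and puromycin, and RNA was taken after 48 h of culture. Whether LV-MEIS1 cells also carried Cas9 is not given in the sources used here, so a difference between LV-MEIS1 and Control cells cannot be told apart from a difference in how the lines were derived. Each genotype was 1 line or pool, nothing says that its replicates were separate cultures, and the p-values therefore measure only the spread between these samples.

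In mammals the HOX genes sit in 4 clusters, and genes of the same number in different clusters are paralogs, descended from a common ancestral gene. Along each cluster the order of the genes follows the order in which they are switched on along the body axis of the embryo, low numbers towards the head and high numbers towards the tail, with Polycomb proteins keeping silent genes off and Trithorax proteins keeping active genes on. HOX proteins bind DNA together with cofactors of the TALE class, among them the MEIS and PBX proteins, and the high-numbered HOX genes pattern the urogenital tract, the prostate included. HOXB13 and HOXC6 are known for their expression in prostate tissue and prostate cancer.

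The values were CPM as deposited, that is, the estimated reads of a gene scaled to the size of its library. Estimated depths ran from 17200000 to 28700000 reads, 3 reads corresponded to between 0.105 and 0.175 CPM, and replicates of a group correlated at between 0.99 and 0.995 over all genes (Pearson's r of log2 values). MEIS1 averaged 4.25 ± 0.20 CPM in Control, 47.4 ± 2.0 CPM in LV-MEIS1, 3.56 ± 0.12 CPM in HOXB13ko and 29.7 ± 0.37 CPM in HOXB13ko-LV-MEIS1 (SD, n = 3). HOXB13 mRNA was not lower in the libraries labelled HOXB13ko. It read 185, 215 and 187 CPM in Control and 347, 326 and 307 CPM in HOXB13ko, and these libraries are called by their labels throughout. The mRNA level is no check of a knockout made by small insertions or deletions, which can abolish the protein and leave the transcript. Per the study's methods, every clone in the pool was verified as a knockout by western blot for the protein, which is not analysed here. All 10 luminal prostate markers examined were listed, and their summed level was 3676 to 3767 CPM in Control, 2965 to 2992 in LV-MEIS1, 3830 to 3844 in HOXB13ko and 3842 to 3990 in HOXB13ko-LV-MEIS1. None of the 4 basal and none of the 4 blood or endothelial markers was listed. Of the 4 neuroendocrine markers only SYP was listed, at 14.4 to 17.03 CPM in Control, 1.24 to 2.14 in LV-MEIS1, 3.68 to 4.25 in HOXB13ko and 3.51 to 4.35 in HOXB13ko-LV-MEIS1. The 3 listed of 6 stromal markers (COL1A1, PDGFRB and ACTA2) summed to 23.4 to 27.01 CPM in Control, 34.9 to 40.99 in LV-MEIS1, 32.6 to 32.8 in HOXB13ko and 28.6 to 34.9 in HOXB13ko-LV-MEIS1. Between LV-MEIS1 and Control COL1A1 alone of these 3 rose (1.15 ± 0.08, limma eBayes adjusted p = 7.31e-08), whereas PDGFRB fell by 1.28 ± 0.21 and ACTA2 fell by 0.62 ± 0.12 on the log2 scale (0.000217 and 0.000749). The part of these markers in the HOXC results was not tested, and in bulk samples fewer cells with a transcript and less transcript per cell cannot be told apart.

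All 9 HOXC genes lie on the plus strand of chromosome 12 between bases 53938831 and 54056030 (GRCh38, GENCODE release 44), with HOXC13 first and HOXC4 last. HOXC12, at bases 53954903 to 53958956, shared no exonic base with any other annotated gene. HOXC4, at bases 54016931 to 54056030, shared 17.5% of its exonic bases with other genes of the same strand. HOXC6, at bases 53990624 to 54030823, shared 16.1%. HOXC5, at bases 54033050 to 54035361, shared 67.3% with same-strand genes that have no symbol. Among these, the same gene also shared exonic bases with HOXC4 and HOXC6. HOXC13, at bases 53938831 to 53946544, had 7.3% under exons of the antisense RNA gene HOXC13-AS. Reads were assigned without regard to strand and shared reads were divided between transcripts, so these values are less certain than those of HOXC8, HOXC11 and HOXC12, which shared no exonic base on either strand.

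RefSeq places the start of HOXC4, HOXC5 and HOXC6 at the same base, 54016888, whereas GENCODE starts HOXC5 at base 54033050. Promoter sequence from RefSeq (GRCh38.p14) was held for 2 of the 9 genes, HOXC4 and HOXC5, and it was the same sequence for both. It is shown because these were the only HOXC genes with a promoter sequence held, and not because of any comparison. The 250 bases before the common start, chr12:54016638-54016887 on the plus strand, read as follows 5′ to 3′, with capitals marking matches to the motifs searched.
HOXC4 and HOXC5 promoter: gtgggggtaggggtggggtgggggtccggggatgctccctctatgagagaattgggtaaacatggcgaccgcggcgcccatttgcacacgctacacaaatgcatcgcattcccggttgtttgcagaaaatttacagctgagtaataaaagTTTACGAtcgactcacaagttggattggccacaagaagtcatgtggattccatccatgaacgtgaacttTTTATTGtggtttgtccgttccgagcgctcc
The search covered both strands of the window from 250 bases before to 50 bases after the start. The motif TCGTAAA, 1 of the forms that HOXB13 and its paralogs bind, matched on the minus strand 100 bases before the start, and 0.535% of the 34796 distinct promoter windows of the same length held it. CAATAAA, the other such form, matched on the minus strand 31 bases before the start and was held by 4.02% of windows. The MEIS core TGACAG was not in this window and was held by 15.8% of all windows, and the PBX-HOX composite TGATNNAT was not in it either and was held by 7.42%. None of the motifs overlapped another in the printed stretch, and these matches are a description of letters only.

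Levels of different HOXC genes were compared after division by the length of the canonical transcript, as CPM per kb. In Control cells HOXC10 stood first at 18.1 ± 1.4 CPM per kb (SD, n = 3). That place depended on the division by length, since in CPM HOXC12 lay above HOXC10 there (43.8 to 50.4 against 33.2 to 38.7 CPM). HOXC10 specifies lumbar motor neurons in the embryo. HOXC12, a posterior gene active in the hair follicle, had 14.6 ± 1.0 CPM per kb and overlapped HOXC6, at 13.75 ± 0.61 CPM per kb. HOXC13, which switches on hair keratin genes, followed at 5.70 ± 0.13 CPM per kb, then HOXC9, which sets the identity of thoracic motor neurons, at 5.19 ± 0.36 and HOXC4, an activator of the antibody-diversifying enzyme gene in B cells, at 3.58 ± 0.64 CPM per kb. HOXC11, HOXC8 and HOXC5 lay lowest, at 0.815 ± 0.16, 0.726 ± 0.076 and 0.626 ± 0.13 CPM per kb, and these neighbours overlapped. The order of levels therefore did not follow the order of the genes on the chromosome, since weakly expressed HOXC11 and HOXC8 lay next to strongly expressed HOXC10 and HOXC6.

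**Figure D1:**
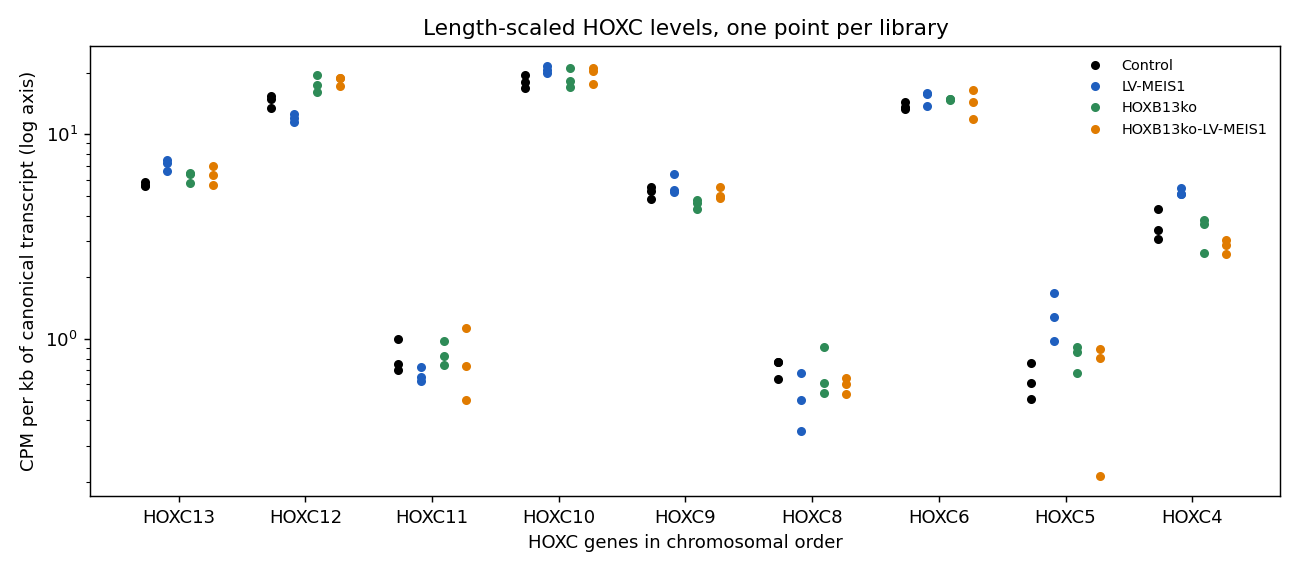
CPM per kb of canonical transcript (log axis) for the 9 HOXC genes in chromosomal order, with 1 point per library coloured by group. HOXC10, HOXC12 and HOXC6 lie highest in all 4 groups, HOXC11, HOXC8 and HOXC5 lie lowest, and HOXC12 of LV-MEIS1 lies below HOXC12 of the other groups.

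The ranking of the 3 highest genes differed between groups. In LV-MEIS1 HOXC10 had 20.6 ± 0.82, HOXC6 15.1 ± 1.3 and HOXC12 12.02 ± 0.53 CPM per kb, all apart from each other, so that HOXC12 came after both. In HOXB13ko HOXC12, at 17.7 ± 1.6 CPM per kb, overlapped HOXC10, at 18.8 ± 2.0, and stood above HOXC6, at 14.8 ± 0.063. In HOXB13ko-LV-MEIS1 HOXC12 again overlapped HOXC10 and stood above HOXC6, with 18.3 ± 0.94, 19.6 ± 1.9 and 14.2 ± 2.3 CPM per kb. The only other gene that changed its place beyond overlap was HOXC5, which in LV-MEIS1 stood above HOXC11 and HOXC8 with 1.31 ± 0.36 CPM per kb.

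Over the 12 libraries the HOXC genes spread about as much as listed genes in general. The ratio of the highest to the lowest library was 1.28 for HOXC10, 1.33 for HOXC13, 1.39 for HOXC6, 1.48 for HOXC9 and 1.69 for HOXC12. The weakly expressed genes spread further, with ratios of 2.26 for HOXC11, 2.6 for HOXC8 and 7.86 for HOXC5, and HOXC4 had a ratio of 2.1. A ratio under 1.5 was found for 4 of the 9 (44.4%) and for 47.9% of the 13918 genes above 0 in every library, and the median ratio was 1.69 against 1.52. The summed CPM of the 9 genes was 139 ± 7.9 in Control, 144 ± 4.8 in LV-MEIS1, 152 ± 11 in HOXB13ko and 154 ± 12 in HOXB13ko-LV-MEIS1 (SD, n = 3), and the groups overlapped.

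Each comparison was fitted in limma over all genes on log2(CPM + 0.5), and fold changes are on that scale, which understates changes of low genes. A gene was called by limma's treat method when its change exceeded 1.5-fold at a Benjamini-Hochberg adjusted p under 0.05. limma's eBayes test against no change is given beside it, and the verbs rose and fell below refer to that test at the same adjusted p.

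LV-MEIS1 against Control asks what exogenous MEIS1 does in cells without the HOXB13 guide. By treat 0 of the 9 HOXC genes were called, with 0 at an unadjusted treat p under 0.05, where 3.99% of all genes were called. By eBayes 4 of the 9 (44.4%) changed, where 44.5% of all genes changed, so the share was that of the background. HOXC4, HOXC5 and HOXC13 rose, as 23.2% of all genes did, and HOXC12 fell, as 21.3% did. The replicates of the 2 groups did not overlap for 5 of the 9, against 51.3% of all genes. The median log2 fold change of the 9 was 0.13, against 0.01 for all genes.

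**Figure D2:**
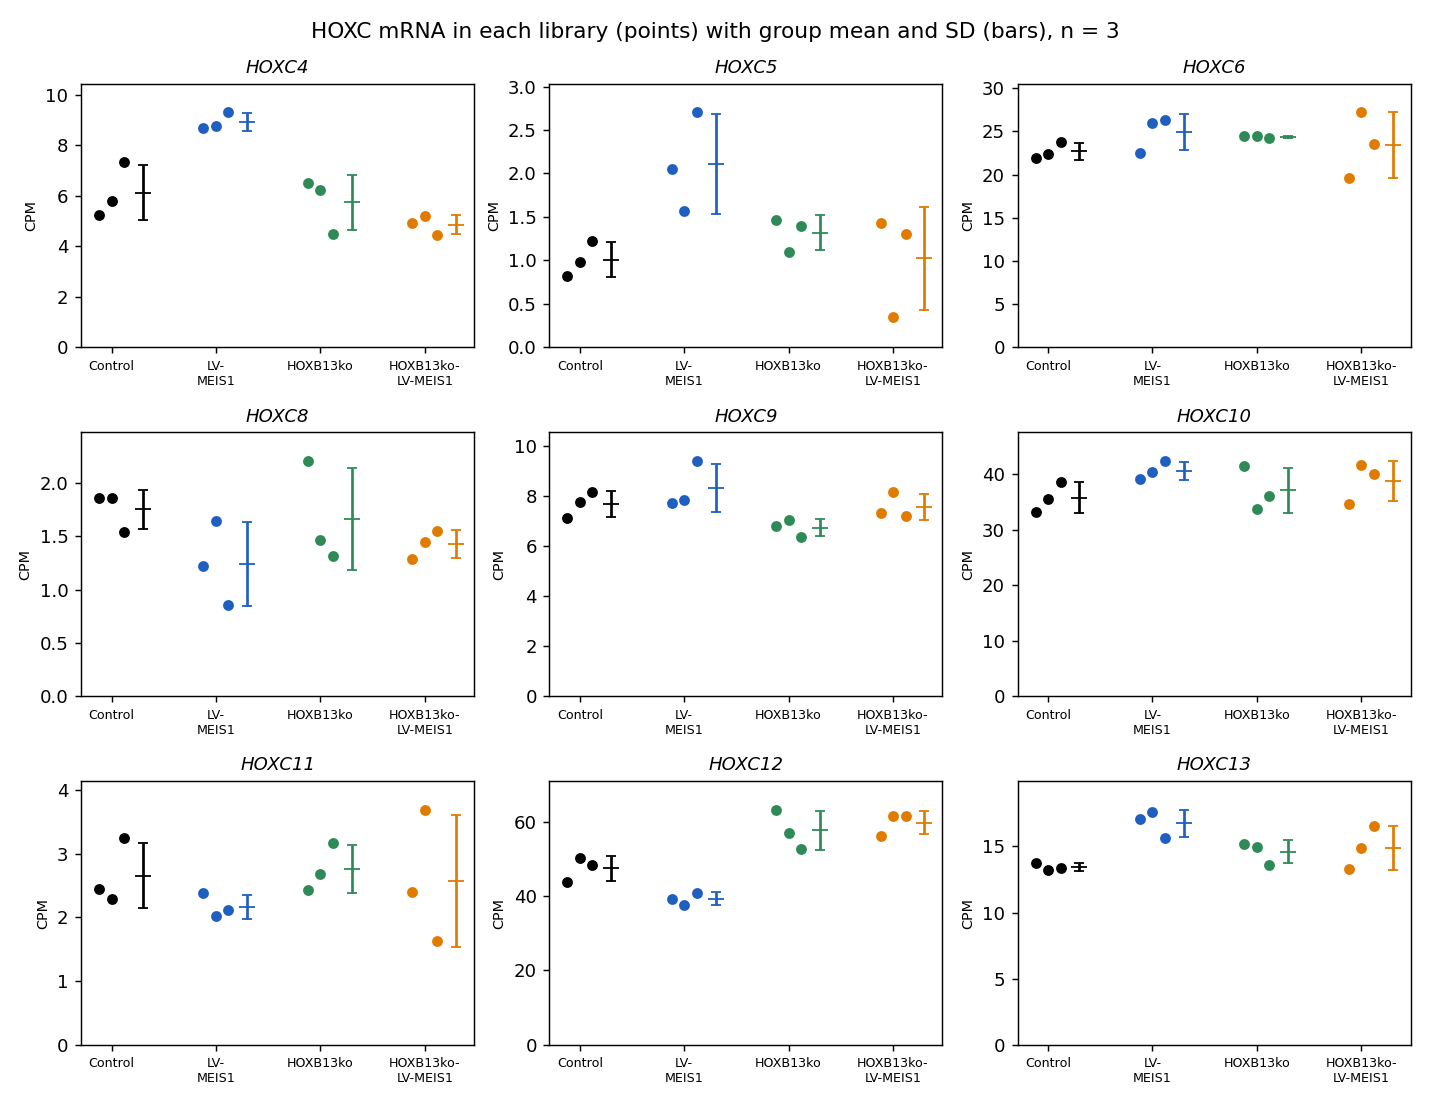
CPM of each of the 9 HOXC genes in the 12 libraries (points) by group, with the group mean and SD (bars, n = 3), on axes that start at 0. HOXC12 is lowest in LV-MEIS1 (37.5 to 41.0 CPM) and HOXC4 is highest there (8.68 to 9.31 CPM), while HOXC6 and HOXC10 overlap across most groups.

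HOXC4 read 5.22, 5.80 and 7.32 CPM in Control and 8.68, 8.76 and 9.31 CPM in LV-MEIS1, so every LV-MEIS1 library lay above every Control library. It rose by 0.52 ± 0.14 log2 units (SE, 95% interval 0.22 to 0.82, eBayes adjusted p = 0.00815). Its neighbour HOXC5, of the next paralog group, read 0.819, 0.983 and 1.22 CPM in Control and 2.05, 1.57 and 2.71 CPM in LV-MEIS1, again without overlap. HOXC4 and HOXC5 both share exonic bases with the same unnamed gene, and the part of that in their values was not tested. HOXC5 rose by 0.78 ± 0.27 (95% interval 0.19 to 1.36, eBayes adjusted p = 0.0324). That call rested on a gene near 1 CPM and was lost when LV-MEIS1 replicate 3 was left out (log2 fold change 0.62, eBayes adjusted p = 0.127), when LV-MEIS1 replicate 1, Control replicate 1 or Control replicate 2 was left out (0.0661, 0.0902 and 0.0702), and with a pseudocount of 0.1 (0.0535).

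HOXC13, at the other end of the cluster, read 13.8, 13.2 and 13.4 CPM in Control and 17.1, 17.6 and 15.6 CPM in LV-MEIS1. All LV-MEIS1 libraries lay above the Control libraries, and HOXC13 rose by 0.31 ± 0.09 (95% interval 0.12 to 0.50, eBayes adjusted p = 0.0119). Without LV-MEIS1 replicate 2 the adjusted p was 0.0504. HOXC12, the gene beside HOXC13, moved the other way. It read 43.8, 50.4 and 48.4 CPM in Control and 39.3, 37.5 and 41.0 CPM in LV-MEIS1, all below the Control libraries, and it fell by 0.27 ± 0.07 on the log2 scale (eBayes adjusted p = 0.00849). The fall of HOXC12 and the rise of HOXC4 passed the eBayes test in each of the 14 settings tried for this comparison.

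The other 5 HOXC genes did not pass either test. HOXC10 read 33.2, 35.5 and 38.7 CPM in Control and 39.1, 40.4 and 42.3 CPM in LV-MEIS1, without overlap but with neighbouring extremes, and its difference was 0.18 ± 0.09 (95% interval 0.00 to 0.37, eBayes adjusted p = 0.102). HOXC6 read 21.9, 22.4 and 23.8 CPM in Control and 22.5, 26.0 and 26.3 CPM in LV-MEIS1, which overlapped, with a 95% interval of -0.08 to 0.34. HOXC8, which patterns the thoracic skeleton, read 1.86, 1.86 and 1.54 CPM in Control and 1.22, 1.64 and 0.851 CPM in LV-MEIS1. The groups overlapped and the interval ran from -0.82 to 0.02, but without LV-MEIS1 replicate 2 the difference was -0.56 with an eBayes adjusted p of 0.0481. HOXC9 and HOXC11 overlapped between the groups, with intervals of -0.11 to 0.33 and -0.68 to 0.21.

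HOXB13ko against Control asks what targeting HOXB13 does without added MEIS1. By treat 0 of the 9 HOXC genes were called, with 0 at an unadjusted treat p under 0.05, where 1.41% of all genes were called. By eBayes 1 of the 9 (HOXC12) changed, where 32.9% of all genes changed, and the replicates did not overlap for 3 of the 9, where 44.9% of all genes did not. HOXC12 read 63.3, 57.05 and 52.7 CPM in HOXB13ko, all above the 43.8 to 50.4 CPM of Control, and rose by 0.27 ± 0.07 (95% interval 0.12 to 0.43, eBayes adjusted p = 0.0121). Without HOXB13ko replicate 1, the highest library, the adjusted p was 0.0523 and the log2 fold change 0.21. HOXC6 read 24.4, 24.4 and 24.3 CPM in HOXB13ko, just above the Control libraries, with an interval of -0.11 to 0.31. HOXC9 read 6.80, 7.01 and 6.35 CPM, just below the 7.09 to 8.14 CPM of Control, with an interval of -0.40 to 0.05. HOXC13 read 15.2, 15.0 and 13.6 CPM, which overlapped Control (interval -0.08 to 0.30), and HOXC10 read 41.5, 33.7 and 36.1 CPM (interval -0.14 to 0.24). HOXC4 read 6.48, 6.22 and 4.49 CPM (interval -0.39 to 0.21), and the low HOXC5, HOXC8 and HOXC11 had intervals of -0.31 to 0.86, -0.50 to 0.35 and -0.39 to 0.50.

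**Figure D3:**
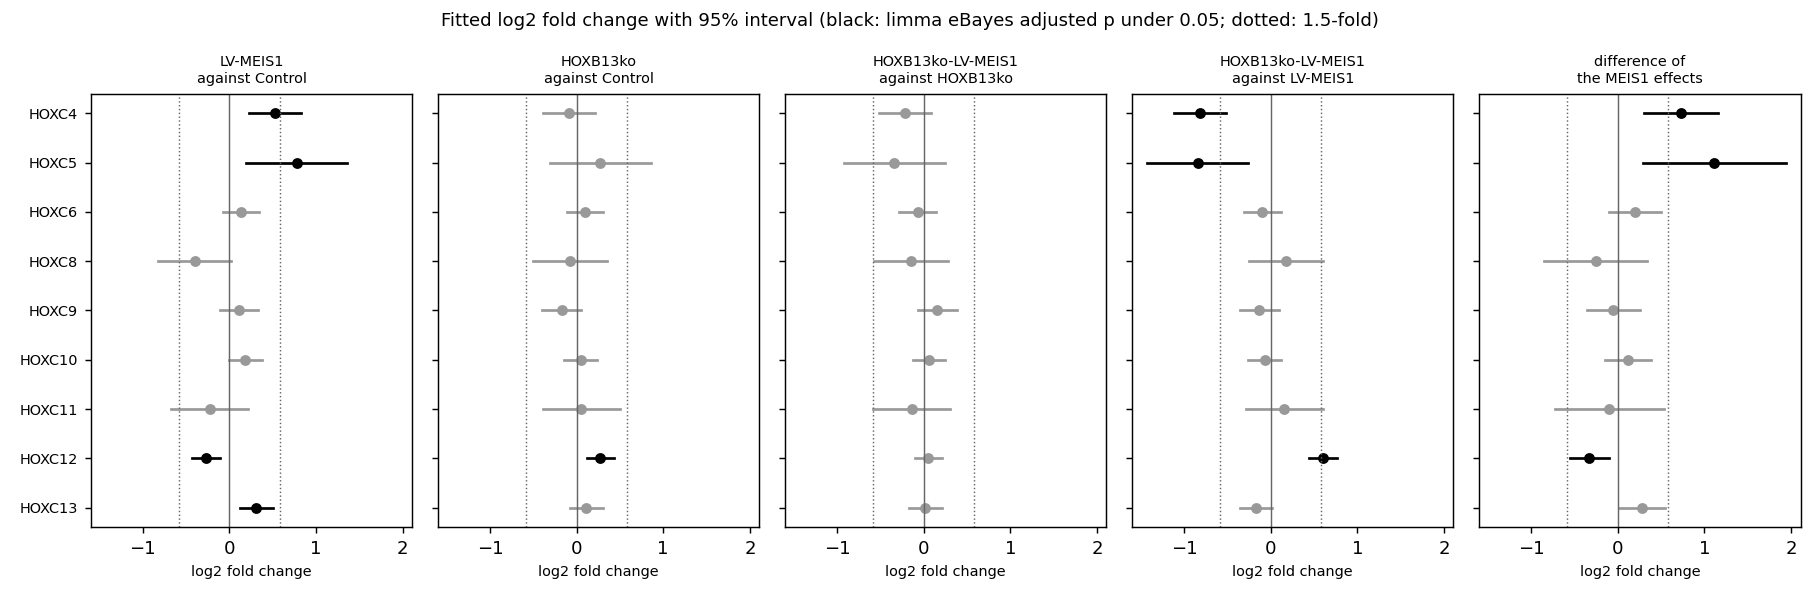
Fitted log2 fold changes of the 9 HOXC genes (x axis, with 95% intervals) in the 5 comparisons, black where the limma eBayes adjusted p is under 0.05 and with dotted lines at 1.5-fold. The black points are HOXC4, HOXC5, HOXC12 and HOXC13 in LV-MEIS1 against Control, HOXC12 in HOXB13ko against Control, and HOXC4, HOXC5 and HOXC12 in the last 2 panels, and none is black in HOXB13ko-LV-MEIS1 against HOXB13ko.

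HOXB13ko-LV-MEIS1 against HOXB13ko asks what MEIS1 does in the knockout pool. By treat 0 of the 9 HOXC genes were called and 0.00717% of all genes were, and by eBayes 0 of the 9 and 0.0502% of all genes. None of the 9 had an unadjusted treat p under 0.05. The replicates did not overlap for 1 of the 9, HOXC9, against 21.1% of all genes. HOXC9 read 7.33, 8.15 and 7.18 CPM in HOXB13ko-LV-MEIS1 and 6.35 to 7.01 CPM in HOXB13ko (interval -0.07 to 0.38). HOXC12 read 56.3, 61.5 and 61.6 CPM, which overlapped HOXB13ko, with an interval of -0.10 to 0.21. HOXC4 read 4.90, 5.18 and 4.44 CPM (interval -0.51 to 0.09) and HOXC13 read 13.3, 14.9 and 16.5 CPM (interval -0.17 to 0.21), both overlapping HOXB13ko. HOXC6 read 19.6, 27.2 and 23.6 CPM and HOXC10 read 34.6, 41.7 and 40.0 CPM, a wider spread than in the other groups for HOXC6, whose SD was 3.82 CPM. HOXC5 read 1.43, 0.345 and 1.30 CPM, and its interval of -0.92 to 0.25 was the widest of the 9. HOXC11 read 2.39, 3.69 and 1.63 CPM and HOXC8 read 1.29, 1.45 and 1.56 CPM, both overlapping HOXB13ko.

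HOXB13ko-LV-MEIS1 against LV-MEIS1 compares the knockout pool with the line that had no HOXB13 guide when both carry the MEIS1 virus. MEIS1 itself was lower in the former (29.7 against 47.4 CPM), and the part of that difference in the HOXC values was not tested. By treat 0 of the 9 were called, where 6.71% of all genes were. None had an unadjusted treat p under 0.05, and the lowest treat adjusted p was 0.601, for HOXC4. By eBayes 3 of the 9 changed, where 50.1% of all genes did, and the replicates of the same 3 did not overlap, where 58.3% of all genes did not. HOXC4 fell by 0.82 ± 0.14 on the log2 scale (eBayes adjusted p = 0.000245), with 4.44 to 5.18 CPM in HOXB13ko-LV-MEIS1 and 8.68 to 9.31 CPM in LV-MEIS1. HOXC5 fell by 0.84 ± 0.27 (eBayes adjusted p = 0.0191), which was lost without HOXB13ko-LV-MEIS1 replicate 2, whose 0.345 CPM was the lowest HOXC value of all libraries (log2 fold change -0.46, adjusted p = 0.0933), and without LV-MEIS1 replicate 3 (adjusted p = 0.0879). HOXC12 rose by 0.60 ± 0.07 (95% interval 0.44 to 0.76, eBayes adjusted p = 1.1e-05), a fold of 1.52, and passed the eBayes test in each of the 14 settings tried. HOXC13 differed by -0.17 ± 0.09 (eBayes adjusted p = 0.128), and the other 5 overlapped between the groups.

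The difference of the MEIS1 effects is the change from Control to LV-MEIS1 minus the change from HOXB13ko to HOXB13ko-LV-MEIS1. By treat 0 of the 9 HOXC genes were called, where 2.93% of all genes were, and none had an unadjusted treat p under 0.05. By eBayes 3 of the 9 were called, where 34.2% of all genes were. HOXC4 had a change of 0.52 in the first and -0.21 in the second, a difference of 0.73 ± 0.20 (95% interval 0.30 to 1.16, eBayes adjusted p = 0.0125). HOXC5 had changes of 0.78 and -0.34, a difference of 1.11 ± 0.39 (95% interval 0.29 to 1.94, eBayes adjusted p = 0.0382). HOXC12 had changes of -0.27 and 0.05, a difference of -0.33 ± 0.10 (95% interval -0.55 to -0.10, eBayes adjusted p = 0.0277). HOXC13 had changes of 0.31 and 0.02, and that difference did not pass (0.28 ± 0.13, eBayes adjusted p = 0.096). The HOXC4 difference passed in all 19 settings tried, whereas those of HOXC5 and HOXC12 passed in 11 of 19 each and were lost without any of several single libraries, with adjusted p up to 0.094 for HOXC5 (without LV-MEIS1 replicate 3) and up to 0.0737 for HOXC12 (without HOXB13ko replicate 3).

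The share of each gene in the summed CPM of the 9 HOXC genes does not depend on how the libraries were scaled, and this measure was chosen after the values were seen. HOXC12 made up 33.7%, 36.0% and 33.2% of that sum in the Control libraries and 28.1%, 26.2% and 27.4% in LV-MEIS1. In HOXB13ko its share was 38.7%, 38.4% and 36.7%, and in HOXB13ko-LV-MEIS1 39.9%, 37.5% and 39.0%. Its share was thus lowest in LV-MEIS1 and highest in the libraries of the knockout pool, with no overlap between Control, LV-MEIS1 and the pool. HOXC4 made up 6.18% ± 0.059 of the sum in LV-MEIS1, against 4.39% ± 0.55 in Control, 3.76% ± 0.55 in HOXB13ko and 3.15% ± 0.33 in HOXB13ko-LV-MEIS1 (SD, n = 3).

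Among 11 non-coding RNA genes of the locus, 4 were listed, and by eBayes 2 of these changed between LV-MEIS1 and Control, where 44.5% of all genes did, while treat called 0. HOTAIR, a long non-coding RNA known to bind Polycomb proteins, lies on the minus strand next to HOXC12, at bases 53962308 to 53974956, and reaches into the span of HOXC11. HOTAIR read 2.27, 1.86 and 2.55 CPM in Control and 1.55, 1.41 and 1.33 CPM in LV-MEIS1. It lay lower in every LV-MEIS1 library, like HOXC12 beside it, and fell by 0.49 ± 0.17 on the log2 scale (eBayes adjusted p = 0.0264). HOTAIR rose by 0.47 ± 0.17 in HOXB13ko-LV-MEIS1 against LV-MEIS1 (eBayes adjusted p = 0.0295). LINC02381, on the plus strand beyond HOXC4 at bases 54126019 to 54147485, read 0.872, 0.994 and 0.771 CPM in Control and 1.83, 2.06 and 1.37 CPM in LV-MEIS1, and rose by 0.70 ± 0.23 (eBayes adjusted p = 0.0213). The difference of the MEIS1 effects was 1.10 ± 0.32 for LINC02381 (eBayes adjusted p = 0.0168) and -0.20 ± 0.23 for HOTAIR (0.535). HOXC-AS3, antisense to HOXC10, and FLJ12825, beyond HOXC4, passed no test between LV-MEIS1 and Control, with intervals of -0.39 to 0.30 and -0.85 to 0.04.

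**Figure D4:**
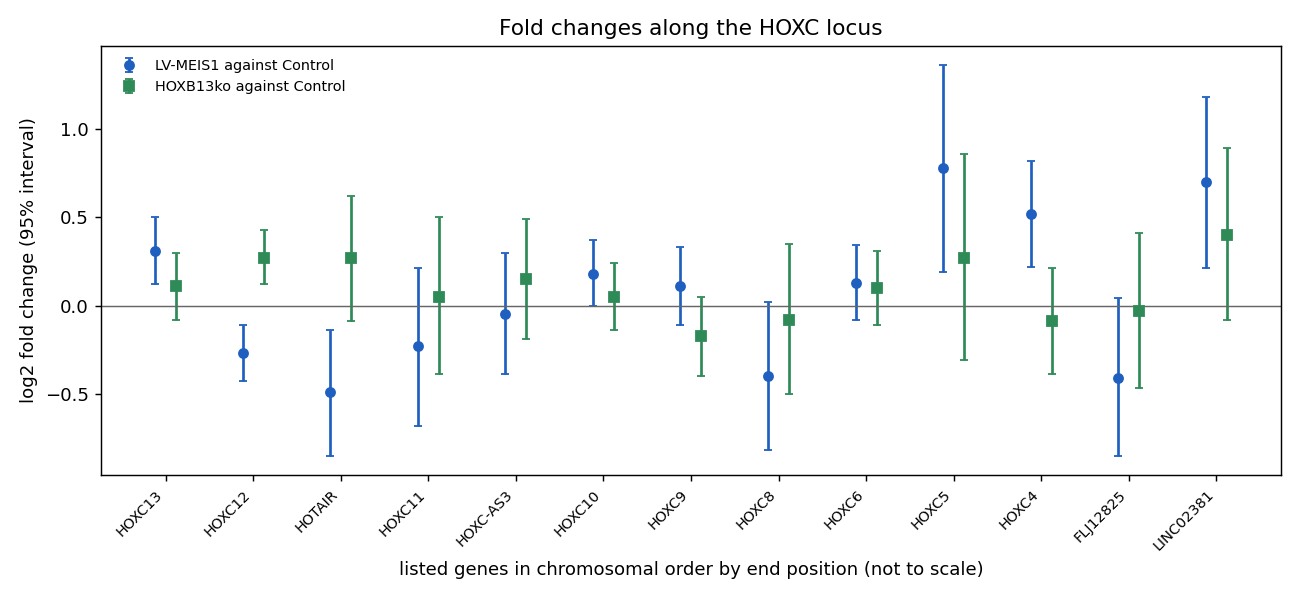
Log2 fold change with its 95% interval (y axis) for the 9 HOXC genes and the 4 listed non-coding RNA genes in chromosomal order (x axis, not to scale), in LV-MEIS1 against Control (blue circles) and HOXB13ko against Control (green squares). In LV-MEIS1 HOXC12 and HOTAIR lie below 0 with their intervals while HOXC13, HOXC5, HOXC4 and LINC02381 lie above it, and in HOXB13ko only the interval of HOXC12 leaves out 0.

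Beyond the cluster, 14 of 17 flanking genes of chromosome 12 were listed. Between LV-MEIS1 and Control treat called 0 of them, and by eBayes 7 rose and 2 fell (9 of 14, where 44.5% of all genes changed, 23.2% upward and 21.3% downward), with a median log2 fold change of 0.15 against 0.01 for all genes. The flanking gene MAP3K12, a kinase of the stress-activated cascade, was called by treat between HOXB13ko-LV-MEIS1 and LV-MEIS1, with a fall of 1.02 ± 0.12 on the log2 scale (adjusted p = 0.0175). MAP3K12 had risen in LV-MEIS1 against Control (0.73 ± 0.12, eBayes adjusted p = 0.000164). It passed no test in HOXB13ko against Control (-0.15 ± 0.12, eBayes adjusted p = 0.355).

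Paralogs of the HOXC genes in the other clusters did not all move as the HOXC member did. Of the 30 HOX genes of the HOXA, HOXB and HOXD clusters that were looked for, 18 were listed. Between LV-MEIS1 and Control 7 of these 18 rose and 5 fell by eBayes, where 44.5% of all genes changed. By treat HOXD9 alone was called (1.38 ± 0.19, treat adjusted p = 0.0164), where 3.99% of all genes were called. HOXD9 was a low gene, with 0.407, 0.692 and 0.887 CPM in Control and 2.66, 2.02 and 2.81 CPM in LV-MEIS1. HOXC13 rose by 0.31, whereas its paralogs HOXA13 and HOXB13 fell by 0.61 ± 0.09 (eBayes adjusted p = 5.09e-05) and by 0.37 ± 0.07 (0.000493). HOXA13 averaged 23.4 ± 0.85 CPM in Control and 15.2 ± 1.2 CPM in LV-MEIS1 (SD, n = 3). HOXA10, the paralog of HOXC10, fell by 0.30 ± 0.09 (eBayes adjusted p = 0.0143), where HOXC10 had a difference of 0.18 that did not pass. Of the paralogs of HOXC6, HOXB6 rose by 0.49 ± 0.11 (eBayes adjusted p = 0.00208) and HOXA6 had a difference of -0.04 ± 0.12 (0.801). Of the paralogs of HOXC5, which rose by 0.78, HOXB5 rose by 0.74 ± 0.11 (eBayes adjusted p = 0.000123) and HOXA5 did not pass (0.02 ± 0.08, 0.874). Of the paralogs of HOXC4, which rose by 0.52, HOXA4 fell by 0.46 ± 0.16 (eBayes adjusted p = 0.0334) and HOXB4 did not pass (-0.29 ± 0.12, 0.0564). No paralog of HOXC12 was listed. The median absolute log2 fold change was 0.271 for the HOXC genes, 0.416 for the other HOX genes and 0.203 for all genes.

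**Figure D5:**
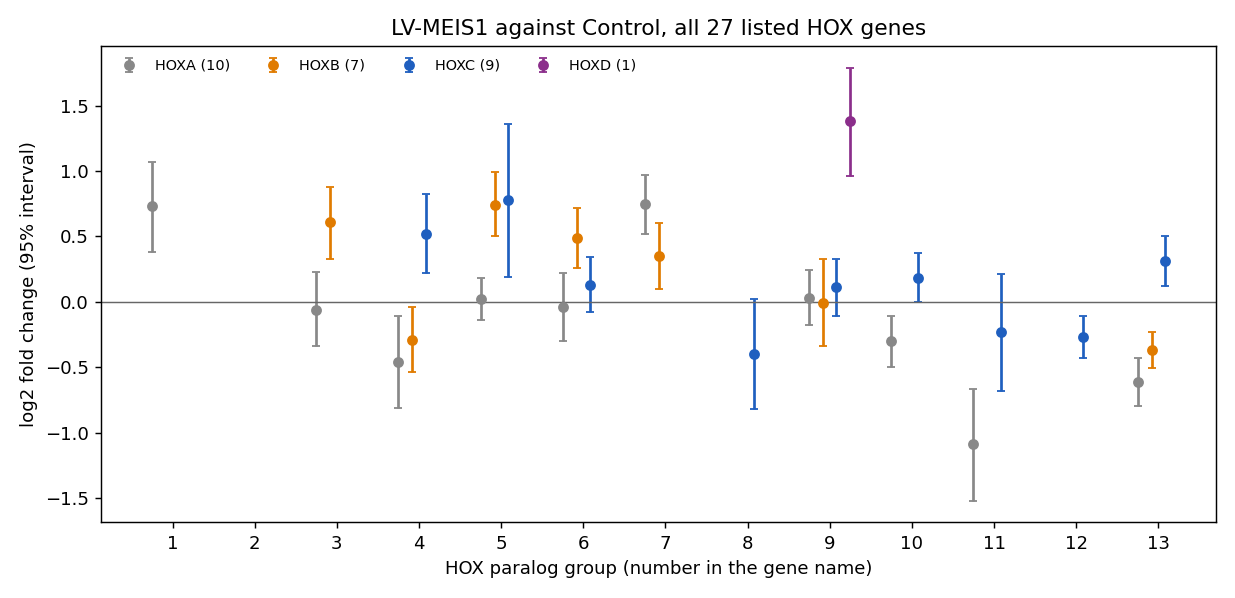
Log2 fold change with its 95% interval (y axis) between LV-MEIS1 and Control for the 27 listed HOX genes by paralog number (x axis), coloured by cluster. At number 13 HOXC13 lies above 0 while HOXA13 and HOXB13 lie below it, and HOXD9 has the highest value, 1.38.

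The partners and regulators of HOX genes were examined by fixed lists. Of 11 TALE genes 9 were listed. MEIS1, the introduced gene, was called higher by treat between LV-MEIS1 and Control (3.33 ± 0.07, adjusted p = 3.02e-12). MEIS3, a relative of MEIS1, was called lower between HOXB13ko-LV-MEIS1 and LV-MEIS1, with a fall of 1.32 ± 0.16 on the log2 scale (treat adjusted p = 0.00364). It was a low gene, with means of 0.766 and 2.69 CPM in these groups. Without the virus MEIS3 was already lower in HOXB13ko than in Control (-0.87 ± 0.16, eBayes adjusted p = 0.00099). In LV-MEIS1 against Control it passed no test (0.11 ± 0.16, eBayes adjusted p = 0.615). All 30 Polycomb genes were listed, and between LV-MEIS1 and Control treat called 0, and by eBayes 4 rose and 3 fell, with a median of 0.04 against 0.01 for all genes. The Trithorax list of 17 genes, all listed, was broader than its name and also held the chromatin genes DOT1L, KDM6B and CTCF. Of these 17 genes treat called 0, and by eBayes 4 rose (KDM6B among them) and 3 fell (DOT1L among them), with a median of 0.01. These counts, 7 of 30 and 7 of 17, stand beside 44.5% of all genes. In HOXB13ko against Control the eBayes counts were 3 up and 1 down for Polycomb genes and 0 up and 3 down for the Trithorax list, where 32.9% of all genes changed. Of 5 genes taken as HOXC6-regulated from background knowledge, 2 were listed. IGFBP3, which binds insulin-like growth factors, was called higher in LV-MEIS1 than in Control (1.81 ± 0.05, treat adjusted p = 5.16e-10), where MME, the membrane protease neprilysin, fell by 0.36 ± 0.07 on the log2 scale (eBayes adjusted p = 0.00103). Between HOXB13ko-LV-MEIS1 and LV-MEIS1 MME was called higher (1.25 ± 0.07, treat adjusted p = 5.94e-06) and IGFBP3 called lower, with a fall of 1.93 ± 0.05 (8.35e-11). Without the virus, MME was already higher in HOXB13ko than in Control (0.77 ± 0.07, eBayes adjusted p = 3.26e-06). IGFBP3 was lower there, by 0.33 ± 0.05 (0.000469). In HOXB13ko-LV-MEIS1 against HOXB13ko neither passed, with differences of 0.12 ± 0.07 for MME and 0.21 ± 0.05 for IGFBP3 (eBayes adjusted p = 0.476 and 0.144). HOXC6 itself passed no test in any of the 5 comparisons.

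The likeness of profiles over the 12 libraries was described by Pearson's r of log2(CPM + 0.5). These r values share the 4 groups, the libraries and their scaling, and were picked as the highest among the 13902 genes whose mean reached 1 CPM. HOXC12 was most like TSPAN3 (0.974), ZNF503 (0.973) and LRRC8A (0.973), and HOXC4 was most like SMARCD3 (0.966), MCRIP1 (0.958) and ADSSL1 (0.956). HOXC13 was most like PCDHAC1 (0.912), TSPAN33 (0.906) and SNX29 (0.906), and HOXC5 most like ETFBKMT (0.901), CTAGE8 (0.863) and PRDM11 (0.856). HOXC6 was most like HNRNPUL2 (0.841), MAGIX (0.793) and LOH12CR2 (0.777), and HOXC10 most like BTN3A2 (0.873), TMEM51 (0.848) and TMEM150C (0.833). The genes most like HOXC9 included ZNF362 (0.857) and C6orf226 (0.856). HOXC8 was most like MRPL36 (0.866), TNFRSF1B (0.841) and SLC43A1 (0.818), and HOXC11 most like ND3 (0.927), PNN (0.879) and ND2 (0.868). No HOXC gene was among the 3 genes most like another. Over the 36 pairs of HOXC genes the median r was -0.03, from -0.72 for HOXC4 with HOXC12 to 0.67 for HOXC6 with HOXC10.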

How the data were processed

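RNA-seq was run on 12 CWR22Rv1 libraries, single-end, with a stranded kit. The deposited values are CPM. To make them, the authors trimmed reads (Trimmomatic 0.38), assigned them to Ensembl GRCh38 transcripts without using strand (kallisto 0.43.1), summed estimated counts to genes with tximport, dropped genes with few counts and normalised in edgeR 3.22.2 (base calls came from CASAVA 1.8, per the labels). Of 13993 rows, 42 exact repeats were dropped.

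Depth was estimated from the steps between low CPM values. Between 47.52% and 60.64% of values under 1 CPM lay within 0.1 step of a whole multiple, so whole reads could not be recovered and count models were not used.

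Groups came from the labels. Tests used limma 3.58.1 under R 4.3.3 on log2(CPM + 0.5), with all 12 libraries, 1 mean per group and no filter. Calls used treat with a trended prior and a threshold of 1.5-fold, at a Benjamini-Hochberg adjusted p under 0.05 over 13951 genes, since the authors also tested against that fold. On simulated data for LV-MEIS1 against Control with 200 of 13951 genes changed, treat called 100% of genes changed 4-fold, 67% of those changed 2-fold and 0% of unchanged genes. The changed genes were drawn from those with a mean log2(CPM + 0.5) above 1. These detection rates therefore do not cover lower genes such as HOXC5, whose mean was 1.37 CPM. Alternatives were pseudocounts of 0.1 and 1, a mean of at least 1 CPM, 3 other scalings, eBayes, an adjusted p under 0.01, a replicate term, a fit of the compared groups alone and leaving out each library.

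Positions and canonical transcript lengths came from GENCODE release 44 and promoters from RefSeq. All HOXC genes were named in every comparison, with HOXB13, MEIS1, listed RNAs of the locus, paralogs of HOXC6, HOXC10, HOXC12 and HOXC13, up to 3 genes per other list called by treat, and the 3 genes most alike by Pearson's r. Paralogs of HOXC4 and HOXC5 were named as well for LV-MEIS1 against Control, since both genes rose there. Called list genes that no HOXC result turned on were left out of the text. Some genes that these rules name are not reported here. The members, lists and tests were chosen with earlier results of these data known.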

Additional observations from a re-analysis of the deposited data

Results flagged for a closer look

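The responses of 3 HOXC genes differed between the line without the HOXB13 guide and the knockout pool when MEIS1 virus was added, by limma's eBayes test of the difference itself. The difference was 0.73 ± 0.20 log2 units for HOXC4, 1.11 ± 0.39 for HOXC5 and -0.33 ± 0.10 for HOXC12, with adjusted p of 0.0125, 0.0382 and 0.0277. These were 3 of the 9 genes, where 34.2% of all genes passed the same test. The HOXC4 difference passed in all 19 settings tried, those of HOXC5 and HOXC12 in 11 of 19 each, and that of HOXC12 was lost with the replicate block (adjusted p = 0.0512). For HOXC4 and HOXC5 the values in LV-MEIS1 lay above those in the other groups, and for HOXC12 they lay below. None of the 3 was called by treat against 1.5-fold. MEIS1 reached a lower level in HOXB13ko-LV-MEIS1 (29.7 CPM) than in LV-MEIS1 (47.4 CPM), and the part of that in the differences was not tested.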

How the results depend on the processing

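The number of HOXC genes called by treat was 0 in all 5 comparisons under each scaling, pseudocount, filter, threshold and sample choice tried and ranged from 0 to 0 when single libraries were left out. limma's eBayes test without the fold threshold called 4 in LV-MEIS1 against Control, 1 in HOXB13ko against Control, 3 in HOXB13ko-LV-MEIS1 against LV-MEIS1 and 3 for the difference of the MEIS1 effects. No called value changed its sign. Same-numbered replicates did not deviate together (18 pairs, r from -0.209 to 0.146, 2 over 0.1), and different-numbered pairs ran from -0.263 to 0.264. The values thus gave no sign of pairing by number, but they cannot show how the samples were handled. With the replicate block treat called 0 HOXC genes in each comparison, and eBayes called 4, 1, 0, 3 and 2, the lost gene being HOXC12, whose MEIS1 effects then differed at an adjusted p of 0.0512. Over all genes treat called 522, 166, 2, 895 and 356 with the block against 557, 197, 1, 936 and 409 without it. Under quantile normalization the HOXC5 difference had an eBayes adjusted p of 0.0751. Genes under 3 CPM (HOXC5, HOXC8 and HOXC11) had the widest intervals, and at this depth changes of their size were poorly resolved.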
